A study of Homo sapiens with 4 samples.

Results

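The data describe 10 genes for transcription factors of the AP-1 group and the immediate early response in cells labelled NB4, a line derived from a human acute promyelocytic leukemia. The genes were JUN, JUNB, FOS, FOSB, FOSL1, FOSL2, ATF3, EGR1, MAFF and MAFG. They were selected by symbol, by matching the gene identifiers of the deposited table to GENCODE release 44. All 10 were found among 58735 listed genes. RNA-seq was performed on 4 libraries, 2 from control cells without treatment and 2 from cells kept for 24 h with GNE-987 at 25 nM. This compound is a degrader, a molecule that links a protein to a ubiquitin ligase. All 4 libraries came from 1 cell line. Nothing in the labels says that the replicates were separate cultures, so P values measure the spread between these libraries, which may be technical.

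AP-1 is a dimer of basic leucine zipper (bZIP) proteins. Jun proteins can pair with each other or with Fos proteins, whereas Fos proteins usually need a Jun partner to bind DNA. ATF3 belongs to the same bZIP class and is known as a stress-responsive factor, and the small Maf proteins MAFF and MAFG lack a transactivation domain and pair with NFE2 and related factors. EGR1 is a zinc finger factor, unrelated in structure, that is switched on by the same growth and stress signals. Many of these genes are immediate early genes, which are transcribed within minutes of a signal without new protein synthesis and whose RNAs are usually short-lived. In myeloid cells, Jun proteins and EGR1 are known for their roles in monocytic differentiation.

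The labelled cell type was checked against marker genes. In the control libraries the promyelocyte granule gene MPO was at 0.0246 and 0 FPKM, ELANE and CTSG were listed at 0 in both, and the erythroid factor gene GATA1 was at 124 and 122 FPKM. Of the other 5 promyelocyte and granulocyte markers, AZU1 was highest in control, at 2.07 and 2.10 FPKM, CD33 was at 0.836 and 0.915 FPKM, PRTN3 at 0.341 and 0.71 FPKM, and CEBPE and MS4A3 did not exceed 0.116 FPKM. The granule genes MPO, ELANE and CTSG were thus at or near 0, whereas AZU1, CD33 and PRTN3 were present at low levels. In control, the 8 promyelocyte and granulocyte markers summed to 3.33 and 3.87 FPKM, and 10 erythroid markers to 444 and 422 FPKM. These levels go against a promyelocytic identity of the cells. The identity was not tested further, and NB4 is used here as a label only. FPKM counts fragments per unit of exon length after scaling each library. The reads on genes recovered from these values numbered between 12362543 and 19324703 per library. The summed FPKM was 218486 and 227275 in control against 624137 and 612335 after treatment. The share of reads on mitochondrial genes was 3.77% and 4.57% against 15.7% and 15.3%. The part of these differences in the results below was not tested. In bulk RNA, fewer cells of a type and less RNA per cell cannot be told apart.

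The promoters of the 10 genes were examined first, because several carry known regulatory sites close to the start. RefSeq promoter windows on GRCh38.p14 matched 9 members, and FOSL1 was not matched. For 8 members a window ended at the start of the gene's canonical transcript. The stretches below cover the 250 bases before the transcript start, read 5′ to 3′ on the gene's strand. JUN is shown for its pair of variant AP-1 sites, JUNB for its TATA box, EGR1 for its CArG boxes, which are the binding sites of serum response factor, and JUND, the remaining Jun gene, for a cAMP response element. Capitals mark these motifs.
JUN, chr1:58784048-58784297, minus strand: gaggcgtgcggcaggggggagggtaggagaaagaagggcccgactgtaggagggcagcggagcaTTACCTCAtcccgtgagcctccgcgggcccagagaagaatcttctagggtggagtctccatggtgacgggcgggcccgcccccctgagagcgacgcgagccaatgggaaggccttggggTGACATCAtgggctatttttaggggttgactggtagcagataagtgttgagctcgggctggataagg
JUNB, chr19:12791236-12791485, plus strand: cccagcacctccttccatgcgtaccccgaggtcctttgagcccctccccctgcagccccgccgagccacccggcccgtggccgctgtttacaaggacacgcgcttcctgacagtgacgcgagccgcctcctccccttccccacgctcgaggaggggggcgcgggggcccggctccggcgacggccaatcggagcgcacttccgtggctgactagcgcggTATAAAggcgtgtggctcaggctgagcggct
JUND, chr19:18281623-18281872, minus strand: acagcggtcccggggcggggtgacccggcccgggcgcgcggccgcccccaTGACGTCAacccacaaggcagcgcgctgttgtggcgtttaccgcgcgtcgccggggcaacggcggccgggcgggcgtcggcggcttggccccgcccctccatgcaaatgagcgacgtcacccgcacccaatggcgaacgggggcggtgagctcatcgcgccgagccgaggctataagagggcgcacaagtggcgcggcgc
EGR1, chr5:138465229-138465478, plus strand: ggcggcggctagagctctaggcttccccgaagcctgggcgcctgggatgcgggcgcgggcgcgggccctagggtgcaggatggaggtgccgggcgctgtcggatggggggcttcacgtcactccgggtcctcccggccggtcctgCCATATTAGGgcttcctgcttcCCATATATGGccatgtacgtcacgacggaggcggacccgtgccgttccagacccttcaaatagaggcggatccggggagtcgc

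Counting back from the transcript start as position -1, TTACCTCA lay at -186 to -179 and TGACATCA at -67 to -60 of JUN. The element TGACGTCA lay at -200 to -193 of JUND, and the same letters lay at -54 to -47 of MAFF. The pair of CArG boxes of EGR1 lay at -105 to -96 and -83 to -74. TATAAA lay at -31 to -26 of JUNB, at -33 to -28 of FOS and at -30 to -25 of FOSB. Both strands were searched. Of 35116 promoter windows of the same length, TTACCTCA was present in 0.644%, TGACATCA in 2.37%, TGACGTCA in 1.65%, a CArG box in 1.16% and TATAAA in 10.7%. The consensus AP-1 site TGANTCA was present in 6.57% of all windows and in 0 of the 8 member windows, and the EGR sites GCGGGGGCG and GCGTGGGCG were present in 4.72% and 0.72% of all windows and also in 0 of these 8. A match describes the letters only, and nothing was measured on binding to these sites.

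With GNE-987, the summed level of the 10 genes rose from 96.0 and 82.3 FPKM to 816.5 and 848.9 FPKM. JUN made up most of this sum after treatment. It accounted for 4.40% and 4.79% of the summed FPKM in control and for 61.1% and 62.5% after treatment. In limma on log2(FPKM + 0.1), 9 of the 10 genes had a mean of at least 0.5 FPKM and were tested, and FOSB lay under this limit. A gene was called when its unadjusted P value was under 0.05 and its fold change over 2 in either direction. Of the 9 tested genes, 6 were called higher (JUN, JUNB, FOS, ATF3, EGR1 and MAFF), 1 was called lower (FOSL1), and FOSL2 and MAFG were not called. All 7 calls also had a Benjamini-Hochberg adjusted P under 0.05 in limma. Among all 16668 tested genes, 33.6% were called higher and 24.9% lower, and among the 10996 protein-coding ones 24.0% were called higher and 31.7% lower. On the deposited scale, the FPKM values of control and GNE-987 libraries overlapped in none of the 10 genes. The share of all tested genes without overlap was not counted, so this describes the members' values only. FOSL2 and MAFG turned direction under some other scalings.

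**Figure D1:**
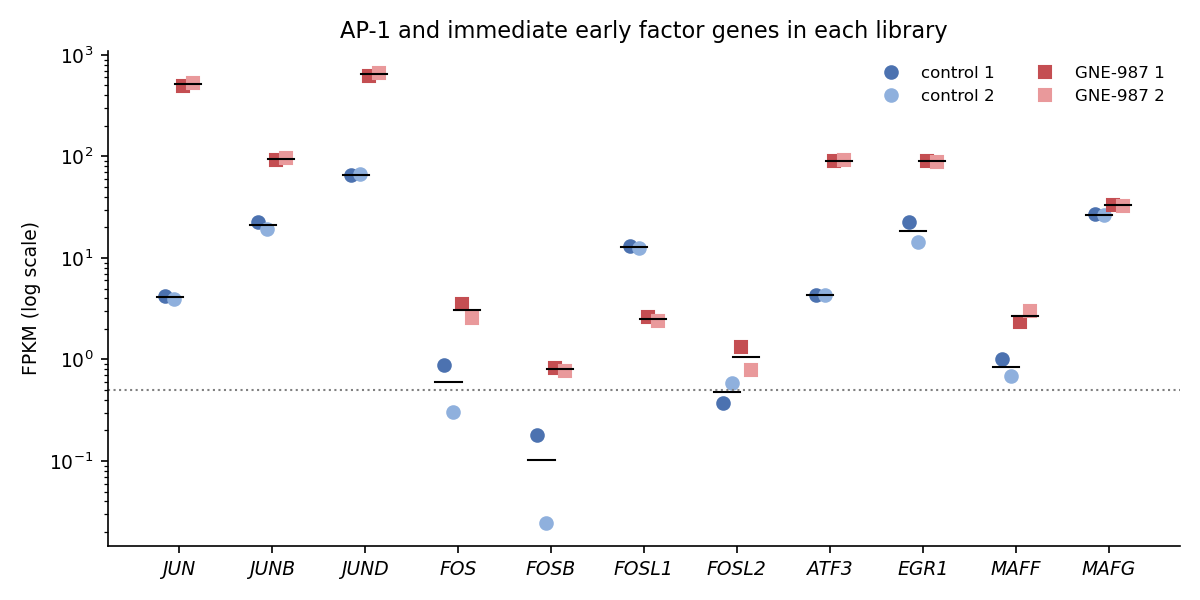
FPKM of the 10 genes and of JUND in each library on a log axis, with circles for control, squares for GNE-987 and a bar at each group mean. JUN lies at 4.22 and 3.95 FPKM in control and at 499 and 531 FPKM after treatment, FOSL1 is the gene that lies lower with GNE-987, and the dotted line marks 0.5 FPKM, the mean a gene needed to be tested.

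Among the Jun genes, JUN, which encodes c-Jun, changed most. It was at 4.22 and 3.95 FPKM in control and at 499 and 531 FPKM after treatment. The treated libraries were far above both controls, and within each group the libraries lay close together. The mean rose 126-fold, with a log2 fold change of 6.94 ± 0.06 (SE) and an adjusted P of 8.96e-05 (limma, Benjamini-Hochberg). These values rested on 344 and 309 recovered reads in control and on 14766 and 16583 reads after treatment. As a proportion of all recovered reads on genes (parts per 1000000), JUN had 17.8 and 16.2 reads in control and 1194 and 1289 with GNE-987. This proportion is not itself divided by gene length or by the deposited scaling, but recovering the reads used both. Ranked by FPKM among 10996 protein-coding genes, JUN moved from positions 6110 and 6334 to positions 103 and 102. A log2 fold change at least as large was found for 216 of the 16668 tested genes (1.30%). Of these, 69 were protein-coding and 46 of them also had a mean of at least 10 FPKM.

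JUNB, whose product often opposes c-Jun in growth control, was at 22.7 and 19.3 FPKM in control and at 93.2 and 96.1 FPKM after GNE-987. Both treated libraries lay above both controls. The mean rose 4.51-fold, with a log2 fold change of 2.17 ± 0.09 (SE) and an adjusted P of 0.000284 (limma, Benjamini-Hochberg). The exons of JUNB overlap those of HOOK2 on the opposite strand over 259 bases (14.2% of the JUNB exon length), and whether reads were counted by strand is not given in the sources used here. HOOK2, a gene for a microtubule-linked protein, was at 3.47 and 3.56 FPKM in control and at 2.01 and 1.87 FPKM after GNE-987. HOOK2 thus lay lower where JUNB lay higher, and its level was under that of JUNB in every library.

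JUND, not one of the 10 but the remaining Jun gene, was at 65.6 and 67.0 FPKM in control and at 624 and 659 FPKM after GNE-987, a rise of 9.67-fold. The rise was therefore shared by all 3 Jun genes, but it was unequal. Within a library, the share of a family's FPKM does not depend on how the library was scaled. JUN made up 4.56% and 4.38% of the FPKM of the 3 Jun genes in control and 41.0% and 41.3% with GNE-987, a difference of 36.7 percentage points. JUNB went from 24.5% and 21.3% to 7.67% and 7.47%. JUND went from 70.9% and 74.3% to 51.3% in both GNE-987 libraries, and was still the highest Jun gene in each library. The groups did not overlap for any of these shares. An exact permutation test of 2 against 2 libraries cannot go below a two-sided P of 0.333, the value obtained for each of them. On the log2 scale, the ratio of JUN to JUNB was -2.43 and -2.29 in control and 2.42 and 2.47 with GNE-987, so that the order of these 2 genes was reversed.

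The Fos genes encode the partners that bind DNA with Jun proteins. FOSL1, which encodes FRA-1, was at 13.0 and 12.6 FPKM in control and at 2.60 and 2.40 FPKM after GNE-987. It was the highest Fos gene in both control libraries and fell in both treated libraries. The mean level was 5.12-fold lower with GNE-987, with a log2 fold change of -2.31 ± 0.08 (SE) and an adjusted P of 0.0002 (limma, Benjamini-Hochberg). FOSL1 was supported by 566 and 524 reads in control and by 41 and 40 reads with GNE-987, and no gene that overlaps its exons was found.

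FOS, the classical partner of c-Jun, was at 0.885 and 0.307 FPKM in control and at 3.51 and 2.59 FPKM after GNE-987. It remained a low gene, with 66 and 22 reads in control and 95 and 74 reads with GNE-987. The spread between the control libraries was wide, but both lay under the treated ones. The log2 fold change was 2.30 ± 0.50 (SE), with an adjusted P of 0.0168 (limma, Benjamini-Hochberg). It was 2.94 without control replicate 1 and 1.66 without control replicate 2. The call was lost when either GNE-987 library was left out, with an unadjusted P in limma of 0.155 without replicate 1 and of 0.119 without replicate 2.

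FOSB was at 0.18 and 0.0244 FPKM in control and at 0.819 and 0.775 FPKM after GNE-987. These values came from 23 and 3 reads in control and 38 reads in each GNE-987 library, so its level was near the lower end of what could be measured. With no filter on low values, its log2 fold change was 2.26 ± 0.51 (SE) and its adjusted P was 0.0342 (limma, Benjamini-Hochberg).

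FOSL2, which encodes FRA-2, was at 0.376 and 0.581 FPKM in control and at 1.34 and 0.792 FPKM after GNE-987. The groups were apart, but the gap between them was narrower than that between the GNE-987 libraries. The log2 fold change was 0.99 ± 0.36 (SE), with a 95% interval from -0.04 to 2.02 and an adjusted P of 0.0695 (limma, Benjamini-Hochberg). FOSL2 was called under median-ratio scaling only, with a log2 fold change of 1.10 and an unadjusted P in limma of 0.0416.

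**Figure D2:**
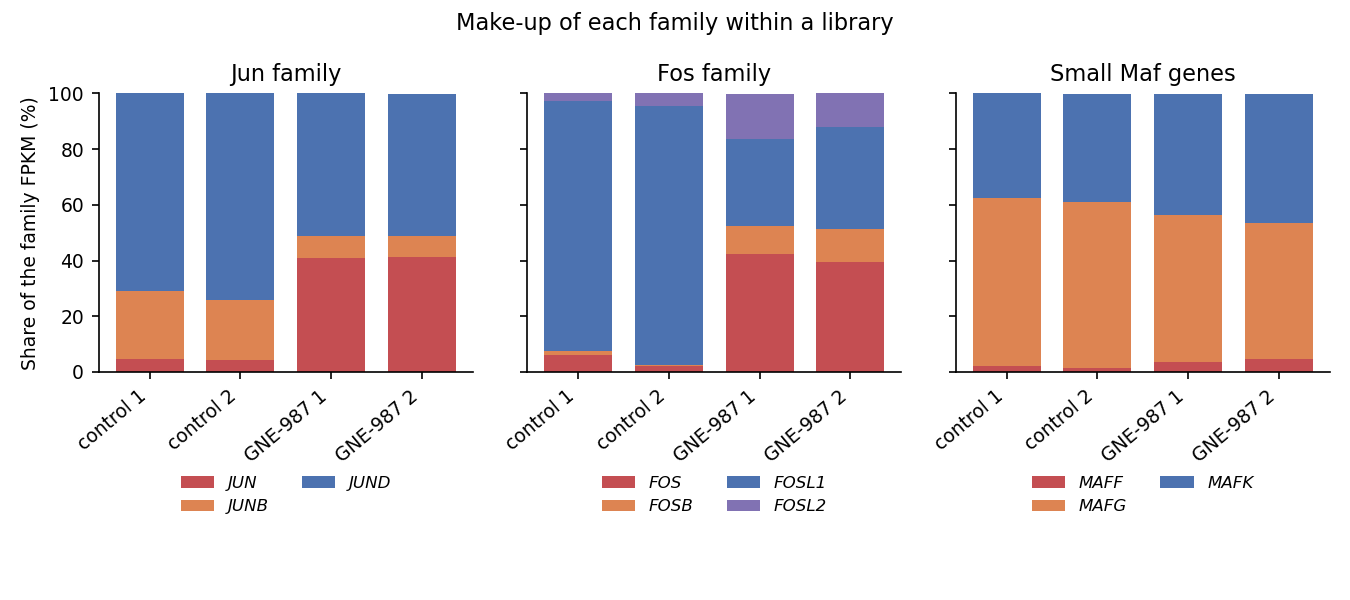
Share of the family's summed FPKM (%) held by each gene in each library, for the Jun genes, the Fos genes and the small Maf genes, stacked to 100%. JUN goes from 4.56% and 4.38% to 41.0% and 41.3% of the Jun genes, FOSL1 from 90.0% and 93.2% to 31.4% and 36.6% of the Fos genes, and the small Maf genes move less.

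The make-up of the Fos family was therefore different after treatment. FOSL1 held 90.0% and 93.2% of the FPKM of the 4 Fos genes in control and 31.4% and 36.6% with GNE-987. FOS went from 6.12% and 2.28% to 42.5% and 39.5%, which made it the highest Fos gene in both treated libraries. FOSB went from 1.24% and 0.181% to 9.91% and 11.8%, and FOSL2 from 2.60% and 4.32% to 16.2% and 12.1%. Unlike the Jun genes, the Fos genes together did not rise. Their sum was 14.5 and 13.5 FPKM in control and 8.26 and 6.56 FPKM after GNE-987, while the sum of the 3 Jun genes was 92.5 and 90.2 FPKM in control and 1216 and 1286 FPKM after GNE-987. The ratio of the Jun sum to the Fos sum was 6.40 and 6.70 in control and 147 and 196 with GNE-987. The groups did not overlap for these shares, sums and ratio, and each gave the smallest P this design allows, 0.333 (two-sided exact permutation test).

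ATF3 was at 4.31 and 4.27 FPKM in control, next to JUN, and at 89.2 and 91.5 FPKM after GNE-987. The libraries of each group lay close together and the groups far apart. The mean rose 21.0-fold, with a log2 fold change of 4.36 ± 0.05 (SE) and an adjusted P of 8.96e-05 (limma, Benjamini-Hochberg). ATF3 had the second largest fold change of the 10 genes and moved from positions 6043 and 6113 to 490 and 476 among protein-coding genes.

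EGR1 was at 22.5 and 14.2 FPKM in control and at 91.1 and 88.2 FPKM after GNE-987. The control libraries differed from each other more than the treated ones, and both lay under them. The mean rose 4.89-fold, with a log2 fold change of 2.32 ± 0.24 (SE) and an adjusted P of 0.00189 (limma, Benjamini-Hochberg).

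Of the small Maf genes, MAFF was called higher and MAFG was not called. MAFF was at 1.02 and 0.684 FPKM in control and at 2.32 and 3.03 FPKM after GNE-987. Both treated libraries lay above both controls. The log2 fold change was 1.55 ± 0.26 (SE), with an adjusted P of 0.00757 (limma, Benjamini-Hochberg), but the call was lost when either GNE-987 library was left out, with an unadjusted P in limma of 0.0536 without replicate 1 and of 0.0781 without replicate 2. The exons of MAFF overlap those of PLA2G6 on the opposite strand over 326 bases (5.81%).

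MAFG was at 26.8 and 26.4 FPKM in control and at 33.5 and 32.7 FPKM after GNE-987. The groups were apart by more than the spread within them. The log2 fold change was 0.31 ± 0.04 (SE), with a 95% interval from 0.19 to 0.44 and an adjusted P of 0.00422 (limma, Benjamini-Hochberg), which is under the 2-fold limit. Its exons share 105 bases with SIRT7 on the same strand (2.00%). Its recovered reads numbered 3225 and 3054 in control and 1464 and 1508 with GNE-987, and its direction turned under scaling to GAPDH, to the FPKM sum or to total recovered reads, under quantile normalization and in limma-voom. Of the FPKM of MAFF, MAFG and MAFK, the third small Maf gene, MAFG held 60.1% and 59.4% in control and 52.7% and 49.0% with GNE-987. MAFF held 2.29% and 1.54% in control and 3.65% and 4.54% with GNE-987, and MAFK held the rest.

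On the per-length FPKM scale, the order of the 10 genes was different in the 2 groups. In the control libraries MAFG stood highest, followed by JUNB and EGR1, whose values overlapped, and by FOSL1. ATF3 and JUN followed, with a gap between them smaller than that between the JUN libraries. MAFF, FOS and FOSL2 came next, with FOS overlapping the other two, and FOSB was lowest. With GNE-987, JUN stood far above all others. JUNB came next, ahead of EGR1 and ATF3 by less than its own spread, and the values of EGR1 and ATF3 overlapped. MAFG followed. FOS, MAFF and FOSL1 overlapped one another, and so did FOSL2 and FOSB at the lower end.

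How the libraries are scaled bears on each fold change but not on the order within a library. GAPDH, often taken as a reference gene, was itself at 398 and 432 FPKM in control and at 1501 and 1499 FPKM after GNE-987, which is 3.61-fold higher, and the FPKM sum was 2.77-fold higher. The median log2 fold change of all tested genes was 0.17 on the deposited scale, -0.57 when libraries were scaled to total recovered reads, -1.19 when scaled to the FPKM sum and -1.53 when scaled to GAPDH. JUN and ATF3 were called higher and FOSL1 lower under each of these. Under scaling to the FPKM sum or to GAPDH, only these 2 members were called higher, and MAFG was called lower beside FOSL1. JUNB, FOS and EGR1 then had log2 fold changes of 0.32, 0.56 and 0.47 with GAPDH, which were still above 0.

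Values were also set against the median of every tested gene, which removes by construction any constant factor between libraries and so does not test the choice of scaling. Over the deposited scale and 5 other scalings, quantile normalization departed most for JUN, FOS, FOSL1, FOSL2 and MAFF. JUN lay between 6.33 and 6.77 above the median on the log2 scale, ATF3 between 4.04 and 4.22, EGR1 between 2.00 and 2.15, JUNB between 1.85 and 2.00, FOS between 1.89 and 2.13 and MAFF between 1.28 and 1.38. FOSL1 lay between -2.50 and -2.25. MAFG lay close to the median of all tested genes under each, between 0.000288 and 0.21. On the deposited scale the median of protein-coding tested genes was lower, at -0.29, and MAFG, at 0.31, lay further above it. FOSL2 lay between -0.09 and 0.97, under the median with quantile normalization and above it with the others.

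**Figure D3:**
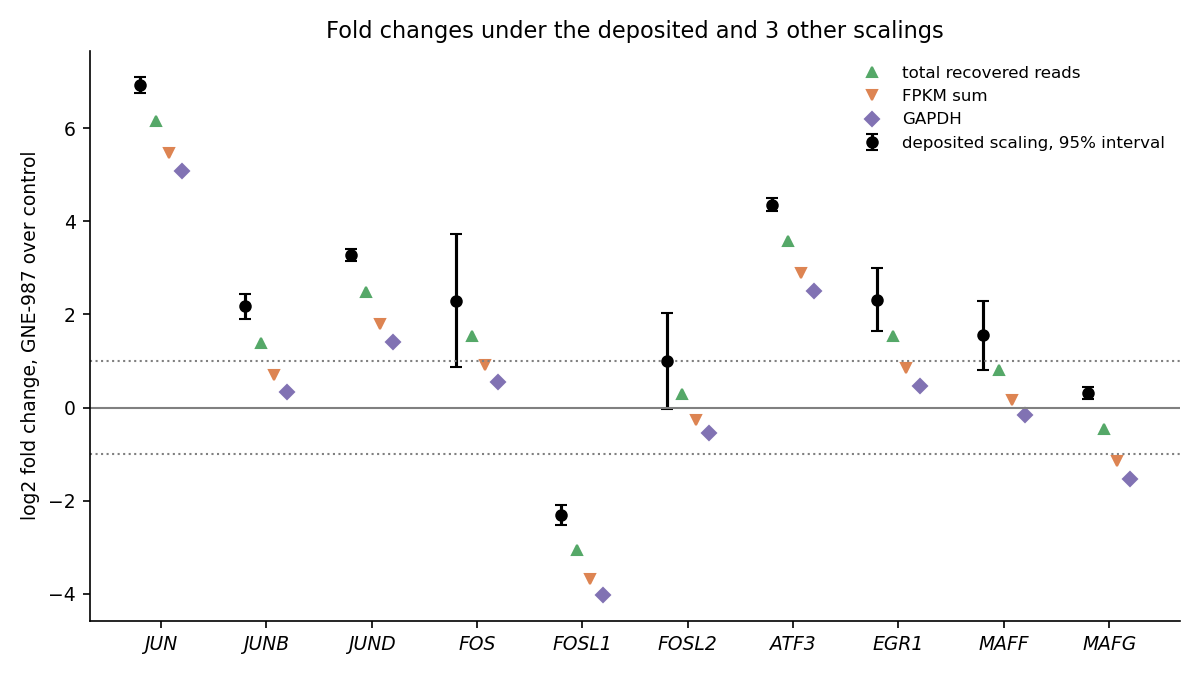
Log2 fold change of each tested gene and of JUND, GNE-987 over control, on the deposited scale (black, with the 95% interval) and after scaling to total recovered reads, to the FPKM sum or to GAPDH (coloured). The solid line marks 0 and the dotted lines the 2-fold limits; JUN, ATF3 and JUND stay above the upper limit and FOSL1 under the lower one, whereas FOSL2, MAFF and MAFG cross 0.

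The transcript structure of the members was compared with that of other genes, since short genes with AU-rich 3′ ends are typical of the immediate early class. JUN and JUNB are each a single exon, as were 2.52% of 10952 tested protein-coding genes, whose median was 9 exons. EGR1 has 2 exons, MAFF and MAFG have 3, and FOS, FOSB, FOSL1, FOSL2 and ATF3 have 4. The pentamer ATTTA, the core of AU-rich elements that mark RNAs for rapid decay, occurred at least once in the 3′ untranslated stretch of all 10 members and in that of 70.0% of the tested protein-coding genes. Its density was above the median of those genes, 1.58 per kb, in 6 of the 10. FOS had the highest density, 6.20 per kb, followed by JUNB with 4 per kb, and EGR1 had the lowest, 0.818. JUN had 2.34 per kb and FOSL1 had 1.20. FOSL1 fell, whereas EGR1, at a lower density than FOSL1, rose, and a link between density and direction was not tested.

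The genes beside the members were examined to see whether whole neighbourhoods changed. Within 10 kb of a member 32 other genes are annotated and listed, and 15 of them were tested. Of these, 4 were called higher and 3 lower. Among all tested genes, 33.6% were called higher and 24.9% lower, so these counts do not set the neighbours apart. No neighbour of JUN, FOS, ATF3 or FOSL2 had a mean of at least 0.5 FPKM. Next to FOSL1, CCDC85B, whose end lies 413 bases past the end of FOSL1, fell from 71.1 and 68.9 FPKM to 23.2 and 22.9 FPKM (log2 fold change -1.60 ± 0.04, limma adjusted P 0.00015). CTSW, a protease gene on the same side, was at 0.227 and 0.21 FPKM in control and at 1.88 and 0.857 FPKM after GNE-987 and was called higher, while FIBP was not called. The CTSW call was lost without either control library, with an unadjusted P in limma of 0.0603 without replicate 1 and of 0.0652 without replicate 2. CTSW rested on 9 and 8 reads in control and 27 and 13 reads after treatment, and it was also not called under a pseudocount of 1, quantile normalization or scaling to GAPDH or the FPKM sum. FOSL1 and CCDC85B thus fell together, and the value of CTSW remains uncertain.

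Next to JUNB, PRDX2, a peroxiredoxin gene, rose from 104 and 92.1 FPKM to 321 and 305 FPKM on the deposited scale, but its log2 fold change was -0.18 when scaled to GAPDH. RPL7P19, a processed pseudogene past the end of EGR1, was at 0.0703 and 0.366 FPKM in control and at 7.74 and 3.67 FPKM after GNE-987. It was called higher, but not without GNE-987 replicate 1 or 2 (unadjusted P in limma 0.0781 and 0.0525), and it shares sequence with other ribosomal protein copies, so its reads are uncertain. Beside MAFG, the non-coding RNA gene MILIP was called lower, at 2.34 and 2.24 FPKM in control and at 0.694 and 0.538 FPKM after GNE-987, and so was ENSG00000264769, which overlaps MAFG exons on the opposite strand over 224 bases. The latter was at 4.09 and 3.93 FPKM in control and at 0.425 and 1.81 FPKM after GNE-987, with an adjusted P of 0.0551 in limma, and its call was lost without either control library (unadjusted P 0.173 and 0.166). TMEM184B beside MAFF was called higher on the deposited scale. Its log2 fold change was 1.45 there, -0.37 with GAPDH and -0.0019 with the FPKM sum. The remaining tested neighbours, HOOK2, MIR5684, ERCC1, FIBP, PLA2G6, PCYT2, SIRT7 and PYCR1, were not called.

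Related genes were counted in lists by role, and all genes in these lists are protein-coding. Among the 10996 tested protein-coding genes, 24.0% were called higher and 31.7% lower. Of 33 other immediate early genes, 23 were tested, 17 were called higher and 2 lower, with a median log2 fold change of 1.45. The median was 0.17 for all tested genes and -0.29 for the protein-coding ones. GADD45B, a stress-response gene, rose from 0.447 and 0.444 FPKM to 33.0 and 35.2 FPKM. NFKBIA, which encodes the inhibitor of NF-κB, rose from 7.03 and 6.74 FPKM to 69.6 and 72.7 FPKM, and BTG2, an antiproliferative gene, rose from 4.27 and 4.10 FPKM to 40.7 and 41.9 FPKM. ARC was at 0.0436 and 0.0453 FPKM in control, 3 reads in each library, and at 15.4 and 18.9 FPKM after GNE-987. The members' own median log2 fold change was 2.17 over the 9 tested.

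Of 18 further bZIP genes related to AP-1 or to the Maf factors, 10 were tested, 3 were called higher and 2 lower, and the median log2 fold change was 0.47. The shares over tested protein-coding genes were 24.0% higher and 31.7% lower. NFE2, which encodes the erythroid and megakaryocytic partner of the small Maf proteins, fell from 58.6 and 52.9 FPKM to 3.25 and 2.98 FPKM (log2 fold change -4.12 ± 0.08, limma adjusted P 0.000117). NFE2L3, a related partner, rose from 3.03 and 2.74 FPKM to 50.9 and 49.0 FPKM. NFE2L1 fell from 18.8 and 20.7 FPKM to 8.03 and 7.94 FPKM. NFE2L2 and BACH1, 2 further partners, were not called, with log2 fold changes of 0.16 and 0.02. BACH2 was under the limit for testing.

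Of the 6 genes of the EGR family and its co-repressors, 3 were tested, and all 3 had a log2 fold change below 0 in limma, of which 2 were called lower. The share called lower over tested protein-coding genes was 31.7%. NAB2, whose product binds EGR1 and represses its activity, fell from 10.5 and 10.3 FPKM to 4.09 and 4.10 FPKM. WT1, a zinc finger factor that recognises similar sites, fell from 9.63 and 9.19 FPKM to 1.51 and 1.27 FPKM. EGR1 thus rose while both of these genes fell. The third tested gene was NAB1, and no other EGR gene reached the limit for testing. EGR2 was at 0.0118 and 0.0123 FPKM in control and at 0.584 and 0.491 FPKM after GNE-987. EGR3 was at 0.0358 and 0.0186 FPKM against 0.0739 and 0.07 FPKM, and EGR4 was listed at 0 in control and at 0.101 and 0.191 FPKM after treatment. These EGR genes had at most 18 reads in any library, and on the deposited scale their treated values lay above the controls. EGR3 had 4 and 2 reads in control and 3 reads in each GNE-987 library, so its higher FPKM rests on the scaling.

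Of 28 kinases and factors that act upstream of the members, 25 were tested, 4 were called higher and 9 lower, and the median log2 fold change was -0.52. Over tested protein-coding genes, 24.0% were called higher and 31.7% lower, and the median was -0.29. MAP2K1, which encodes the ERK kinase MEK1, rose from 11.1 and 10.2 FPKM to 53.2 and 52.0 FPKM. MAP2K3, a kinase of p38, rose from 3.78 and 4.10 FPKM to 16.7 and 17.1 FPKM. The calls of these 2 genes were lost under scaling to GAPDH or to the FPKM sum. RPS6KA4, a kinase of CREB and histone H3, fell from 9.09 and 8.98 FPKM to 1.76 and 2.38 FPKM. The list therefore held genes that moved in each direction, as the protein-coding genes at large did.

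Of 26 genes known as AP-1 targets in other cells, 10 were tested, 4 were called higher and 2 lower, and the median log2 fold change was 0.47. Over tested protein-coding genes, the shares were 24.0% higher and 31.7% lower. The metallothionein gene MT2A rose from 1.97 and 0.87 FPKM to 9.67 and 8.72 FPKM, a call that was lost without GNE-987 replicate 1 or 2 (unadjusted P in limma 0.0874 and 0.0802). GSTP1, a glutathione transferase gene, rose from 316 and 284 FPKM to 1064 and 1067 FPKM, and TIMP1, a metalloproteinase inhibitor gene, from 76.9 and 69.3 FPKM to 244 and 231 FPKM, but the log2 fold changes of these 2 genes were -0.02 and -0.15 when scaled to GAPDH. CCND1, the cyclin D1 gene, fell from 19.6 and 19.7 FPKM to 5.37 and 7.01 FPKM. Among the targets, 10 were listed at 0 in both control libraries.

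**Figure D4:**
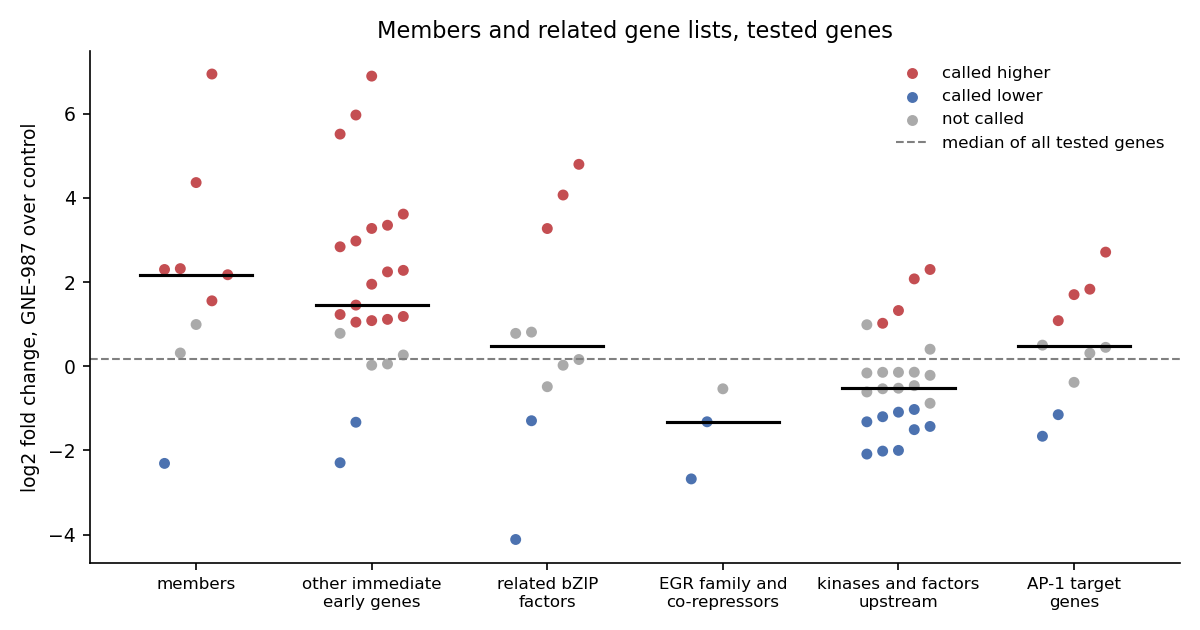
Log2 fold change, GNE-987 over control, of each tested gene of the members and of 5 related lists, coloured by call, with a bar at each list's median and a dashed line at 0.17, the median over every tested gene. The median over tested protein-coding genes, not drawn, was -0.29. The list median is 2.17 for the members, 1.45 for other immediate early genes, 0.47 for related bZIP factors and for AP-1 targets, -1.32 for the EGR list, which rests on NAB1, NAB2 and WT1, and -0.52 for upstream kinases and factors. Genes near 0 in control could pass the testing limit only by lying higher.

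Markers of other blood cell types also differed between the groups. Beside the counts below, 24.0% of tested protein-coding genes were called higher and 31.7% lower. Of 6 monocyte markers, 2 were tested and both were called higher, and their summed level was 2.12 and 1.71 FPKM in control and 57.7 and 60.9 FPKM after GNE-987. Most of that sum was CD14, at 0.0921 and 0.12 FPKM against 50.4 and 52.2 FPKM, whereas FCN1, S100A8 and S100A9 were listed at 0 in every library. Of 8 promyelocyte and granulocyte markers, 4 were called higher and 1 lower, with sums of 3.33 and 3.87 FPKM against 28.9 and 27.1 FPKM. Of 10 erythroid markers, 5 were called higher and 4 lower, with sums of 444 and 422 FPKM against 790 and 676 FPKM. The sums of the 6 megakaryocyte markers were 1.44 in both control libraries and 6.33 and 7.81 FPKM after GNE-987, and those of the 4 B cell markers 0.936 and 0.95 FPKM against 25.2 and 24.0 FPKM. Those of the 4 T cell markers were 18.1 and 17.0 FPKM against 21.4 and 22.0 FPKM. The part of these markers in the members' values was not tested.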

How the data were processed

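RNA-seq was performed on 4 libraries of cells labelled NB4. The authors mapped filtered reads with HISAT2 2.0.5 to hg38, per the submitters' processing notes, and deposited FPKM per gene and library. The counting program, its annotation and its strand setting are not given in the sources used here. Groups came from the sample labels, and dose and time from a figure legend of the study. Columns left unused numbered 0. The limma package (3.58.1, R 4.3.3) tested log2(FPKM + 0.1) of genes averaging 0.5 FPKM or more, with empirical Bayes moderation and an intensity trend, and P values were Benjamini-Hochberg adjusted over all 16668. A fold change on this scale understates that of low genes. The call limits were those of the study's methods. Because the values were not counts, a count test was not the main one.

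Reads were recovered from FPKM steps (tolerance 0.01 of a read). At the annotated exon length, 53.0% of 32895 genes came out whole, and the others did so at another length. For 2 members the annotated length fitted, and for 8 another length within 2.32% of it. Depth is therefore an estimate.

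The members and lists were chosen with earlier results of these data known. All 10 members, JUND and every tested neighbour within 10 kb were named, and from each list up to 4 called genes with the largest change and a mean of at least 5 FPKM. 1 gene that this rule names is not reported here. EGR2, EGR3, EGR4, NAB1, NFE2L2, BACH1, BACH2, MAFK and the markers were added beside this rule after their values were seen. Promoters were RefSeq windows on GRCh38.p14. The steps were tested on simulated data. Over all tested genes, the deviations of same-numbered libraries from their group means had a correlation of 0.00537. This value cannot show whether the replicate numbers stand for paired cultures or batches. No replicate block was used in the main fit.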

Additional observations from a re-analysis of the deposited data

How the results depend on the processing

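The count of members called higher, 6, was 2 when libraries were scaled to GAPDH or to the FPKM sum and between 4 and 6 when 1 library was left out (4 without either GNE-987 library, when the lone library was assumed to vary like the controls), and the count called lower, 1, was 2 under the same pair of scalings. The replicate block left both counts as they were, at 6 and 1, and changed no other call among the members. Scaling to total recovered reads, limma-voom, a pseudocount of 1 and a test against a fold change of 2 gave 5 higher and 1 lower. No filter gave 7 of 10, and median-ratio scaling 7 of 9. Over all genes, scaling to GAPDH gave 3004 higher and 9694 lower against 5602 and 4148, and scaling to the FPKM sum 3308 and 8713. A test against a fold change of 2 gave 4837 and 3067, and no filter 8757 and 5146. The log2 fold change of the summed FPKM, 3.23, was 1.37 with GAPDH, 1.76 with the FPKM sum, 2.44 with total reads and 2.49 with quantile normalization. The share of JUN among the Jun genes kept its direction and size under each library left out. Over 43 named genes and 712 pairs of gene and setting, 615 kept direction and side, 49 lost and 14 gained a call, and 34 turned direction. In the order GAPDH, FPKM sum, total reads and limma-voom, the log2 fold changes that turned were -1.53, -1.15, -0.47 and -0.47 for MAFG, -1.58, -1.22, -0.56 and -0.57 for ERCC1, -1.21, -0.83, -0.15 and -0.15 for FIBP, -1.51, -1.14, -0.46 and -0.46 for PCYT2, and -1.15, -0.77, -0.0942 and -0.0942 for SIRT7. With GAPDH alone, they were -0.17 for MAFF, -0.15 for TIMP1, -0.0244 for GSTP1 and -0.18 for PRDX2. With GAPDH and the FPKM sum, they were -0.56 and -0.27 for FOSL2 and -0.37 and -0.0019 for TMEM184B. Quantile normalization gave -0.33 for FOSL2, -0.0317 for MAFG and -0.12 for GSTP1. PLA2G6, near 0, turned to 0.0901 with median-ratio scaling, and ranged from -0.0792 to 0.0388 with 1 library left out (0.0278 without control replicate 1). The scaling to a higher reference lowers all fold changes by construction, and no other cause was tested. Counting error limits FOS, FOSB and FOSL2, with under 100 reads in each library.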

Other observations

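The 2 control libraries differed from each other in several of these genes, a comparison made after the values were seen. The ratio of control replicate 1 to control replicate 2, with its exact 95% binomial interval, was 7.37 (2.23 to 38.3) for FOSB, 2.88 (1.76 to 4.91) for FOS, 1.58 (1.46 to 1.71) for EGR1, 1.49 (1.13 to 1.98) for MAFF and 1.18 (1.07 to 1.30) for JUNB. It was 0.647 (0.461 to 0.903) for FOSL2. For JUN, ATF3, FOSL1 and MAFG the interval held 1. Among 23 other immediate early genes tested, the interval lay above 1 for 5 (IER2, IER3, ZFP36, PPP1R15A and ID1) and below 1 for 0, and among all tested genes it lay above 1 for 10.1% and below 1 for 13.1%. The intervals cover counting error only and rest on recovered reads.

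LINC01740, a non-coding RNA gene before the 5′ end of ATF3, had 0 FPKM in control and 0.721 and 1.02 FPKM after GNE-987, from 2 and 3 reads. On the other side, ENSG00000235862 and GARIN4 had 0 FPKM in control, and after treatment 0.86 and 0.611 FPKM for the first (16 and 12 reads) and 0.83 and 0.393 FPKM for the second (16 and 8 reads). All 3 were picked after their values were seen and were under the limit for testing, and they lie within 10 kb of ATF3, which was at 89.2 and 91.5 FPKM in the same libraries. ENSG00000260805, the other listed gene in this window, lay 5602 bases before the 5′ end of ATF3 and went the other way. It was at 0.526 and 0.452 FPKM in control and at 0.063 and 0.298 FPKM after GNE-987. ENSG00000235862 and GARIN4 span nearly the same bases on opposite strands. Whether reads were counted by strand is not given, so their values may not be separate observations.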
